A study of Mus musculus with 6 samples.

Results

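Genes that mark macrophages or encode their surface receptors were followed in the proximal tibial epiphysis of LS1 and Control mice. They were Mpeg1, Csf1r, Adgre1, Cd68, Mrc1, Vsig4, Cd163, Lyz2, Fcgr1 and Ms4a7. These 10 of the 47729 genes in the deposited table were chosen by their known use as markers, with earlier results of these data known. Polyadenylated RNA was sequenced from 14-day-old mice, 3 of the Control line and 3 of LS1. Control, labelled Control (ICR), is the random-bred line, and LS1, labelled Longshanks 1, is a line bred for long tibiae relative to body mass. LS1 is 1 of the selected lines, so a difference between LS1 and Control is a difference between these lines and not a test of selection as such. The mice came from different families, and both epiphyses of a mouse were pooled into 1 library. The tissue held cartilage, bone and marrow together, and the labels give no sex and no treatment.

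Macrophages derive from monocytes of the marrow and from cells seeded in the embryo. They live on signals through the receptor for colony stimulating factor 1, and the transcription factor PU.1 (Spi1) sets up most of their genes. In growing bone they lie beside osteoblasts and in the marrow, where some sit at the centre of erythroblastic islands, and osteoclasts arise from the same precursors and share several of their genes. Interferon is known to raise a part of the macrophage programme, Fcgr1 among it.

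The libraries held 68803249 to 76581954 reads in Control and 82227711 to 88745366 in LS1, so every LS1 library was the deeper. The values are normalized read counts, that is, read counts divided by 1 size factor per library. On the leading principal component, which took 35.1% of the variance, LS1 replicates 1 and 2 stood at 43.7 and 50.1, LS1 replicate 3 at -4.29 and the Control libraries between -41.5 and -22.1. LS1 replicate 3 thus lay between its own group and the Controls. Y-linked genes were high in Control replicate 3 and LS1 replicates 1 and 3, with a summed normalized count of 19313 to 30556, and near 0 in the other 3 libraries (90.5 to 149). The defining markers of cartilage, osteoclasts and marrow were all read, with Col2a1 at a normalized count of 1344210 or more in every library.

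The promoter sequences of the members are shown first for the genes in which a motif of interest was found at positions upstream of the start. RefSeq windows on GRCm38.p6, from 250 bases before to 50 bases after a transcript start, were matched for 8 of the 10 genes, in 9 windows. The letters GAGGAA, the core of the PU.1 box, were searched on both strands together with GAAANNGAA, the core of the interferon-stimulated response element. The PU.1 letters occurred in 5 of the 9 windows, of 5 genes (Cd68, Fcgr1, Mrc1, Ms4a7 and Vsig4), against 28.3% of all 32851 windows of this length. In Ms4a7 the PU.1 match lay 43 bases after the start. The interferon element letters occurred in 2 of the 9 windows, those of Ms4a7, against 8.56% of all windows. The 250 bases upstream of 3 of these starts are given 5′ to 3′ on the strand of the gene, with the matches in capitals.
Fcgr1, chr3:96293970-96294219, minus strand: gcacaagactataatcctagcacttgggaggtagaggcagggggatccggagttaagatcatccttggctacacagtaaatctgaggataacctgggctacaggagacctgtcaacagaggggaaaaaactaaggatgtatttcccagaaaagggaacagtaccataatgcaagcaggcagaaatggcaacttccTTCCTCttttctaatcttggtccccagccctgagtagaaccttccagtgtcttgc
Mrc1, chr2:14229164-14229413, plus strand: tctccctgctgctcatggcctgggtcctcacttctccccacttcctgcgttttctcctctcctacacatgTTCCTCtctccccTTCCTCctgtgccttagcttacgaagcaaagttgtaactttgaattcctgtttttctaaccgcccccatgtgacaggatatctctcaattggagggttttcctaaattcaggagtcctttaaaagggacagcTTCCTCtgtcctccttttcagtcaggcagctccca
Ms4a7, chr19:11336147-11336396, minus strand: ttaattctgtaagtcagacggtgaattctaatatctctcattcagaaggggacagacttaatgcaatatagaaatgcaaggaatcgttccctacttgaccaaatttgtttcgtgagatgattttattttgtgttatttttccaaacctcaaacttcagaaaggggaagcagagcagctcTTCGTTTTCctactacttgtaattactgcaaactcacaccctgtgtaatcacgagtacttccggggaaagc
In Fcgr1 the PU.1 letters stood 55 bases upstream of the start, on the opposite strand. Mrc1 held the PU.1 letters on the opposite strand at 180, 167 and 35 bases upstream. In Ms4a7 the interferon element letters stood 71 bases upstream, on the opposite strand, and the other Ms4a7 window had a match 148 bases upstream. A match describes the letters of a window and is not evidence that a factor binds there.

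All 10 genes were read, but at levels that spanned several orders of magnitude. Per kilobase of exon, the mean normalized count in Control was 39861 ± 8065 (SD, n = 3) for Lyz2, which encodes the lysozyme of myeloid cells, and 7291 ± 1722 for Cd68, a lysosomal membrane protein. Csf1r followed at 2466 ± 565 and Mpeg1 at 1946 ± 581 per kilobase, and the ranges of these neighbours overlapped. Mrc1 (521 ± 31.8) and Adgre1 (496 ± 10.9) also overlapped, as did Fcgr1 (127 ± 20.3) and Cd163 (120 ± 24.3), while Ms4a7 at 200 ± 57.3 stood apart from both of its neighbours. Vsig4, a complement receptor of tissue macrophages, came last at 0.929 ± 1.03 per kilobase. In LS1, Mpeg1 (4308 ± 1742 per kilobase) came before Csf1r (2603 ± 452) in the order, Adgre1 (991 ± 533) before Mrc1 (640 ± 115) and Fcgr1 (524 ± 397) before Ms4a7 (302 ± 78.1), but each of these pairs overlapped in LS1. Lyz2 alone made up 54.8% to 63.0% of the summed normalized count of the 10 genes.

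**Figure D1:**
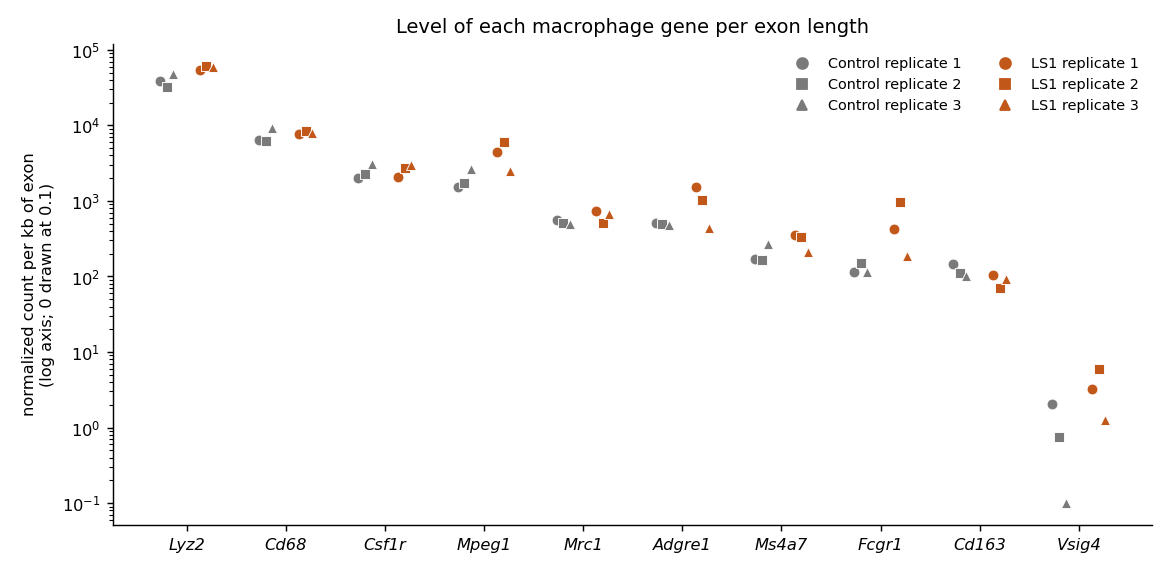
Normalized count per kilobase of exon of each of the 10 genes (log axis) in the 6 libraries, with Control in grey and LS1 in orange and 1 symbol per replicate number. Lyz2 lay highest in every library, and Vsig4, drawn at 0.1 where its value was 0, lay lowest.

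The 10 genes together took 0.101% to 0.142% of the reads in Control and 0.158% to 0.187% in LS1, with no overlap between the groups. This separation rested on Lyz2, which made up most of the sum in every library. The summed normalized count was 111159 in Control replicate 3 and 123016 in LS1 replicate 3, of which Lyz2 made 63506 and 77487. Without Lyz2 the sum was therefore lower in LS1 replicate 3 than in Control replicate 3, and the groups overlapped. In bulk tissue, more cells of a type and more RNA per cell cannot be told apart. Testing was confined to genes averaging 20 reads or more per library, which left 9 of the 10, and 8 of these were higher and 1, Cd163, was lower in LS1. Their median log2 fold change was 0.57, against 0.0054 over the 19308 genes tested. None of the 9 passed an adjusted p-value of 0.05 with limma, and the lowest adjusted p-value was 0.23, of Lyz2. Over all genes 0.0725% passed (14, of which 2 were higher and 12 lower in LS1). At an unadjusted limma p-value under 0.05, 4 members were higher (Mpeg1, Lyz2, Fcgr1 and Ms4a7) and 0 lower, against 7.08% of all tested genes higher and 5.86% lower. In 2 members, Lyz2 and Fcgr1, every LS1 library lay above every Control library, as in 10.3% of all tested genes. The quasi-likelihood test of edgeR and limma-voom on the recovered reads also called 0 members. DESeq2 called 1, Mpeg1, while it called 2.51% of its 18171 genes.

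The calls turned on LS1 replicate 3. Without it, limma called 3 members higher in LS1, Fcgr1, Adgre1 and Mpeg1, with 1.17% of all genes called in that direction. The median of the members was then 0.56. Leaving out each of the other 5 libraries in turn called 0 members. LS1 replicate 3 was the lowest LS1 library for Fcgr1, Adgre1 and Mpeg1, so leaving it out raises their difference and narrows the LS1 spread. Over all genes, limma called 324 without it against 14 with it. Calls without LS1 replicate 3, here and below, are therefore a description and no separate support.

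**Figure D2:**
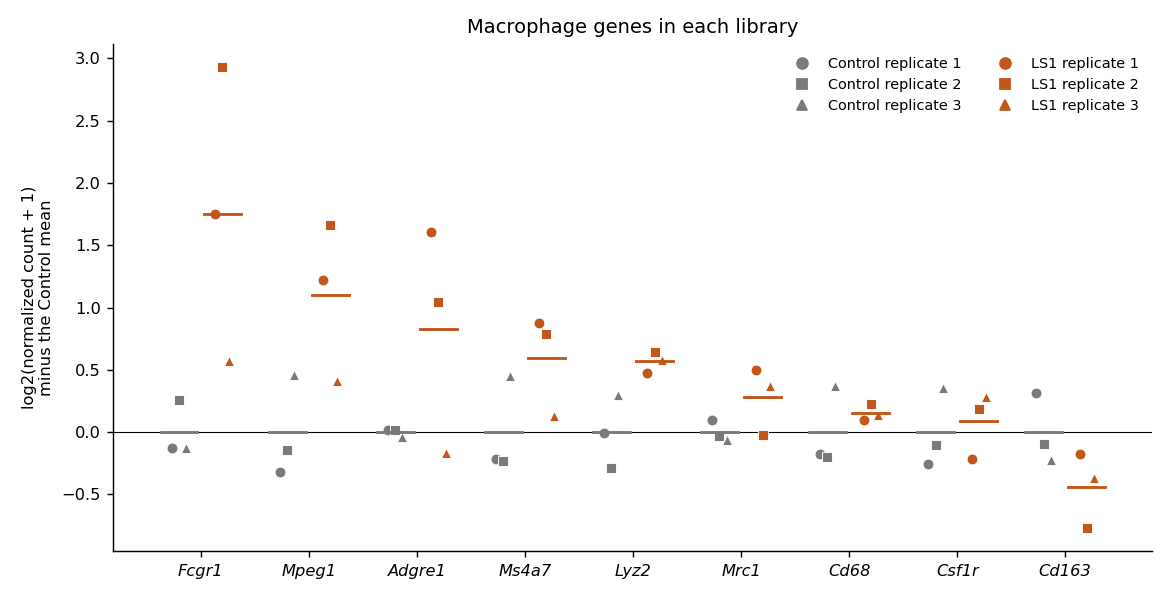
Each of the 9 tested genes in each library, as log2(normalized count + 1) minus the mean of the 3 Control libraries, with a bar at the mean of each group (n = 3). Fcgr1 spread furthest in LS1, from 0.57 to 2.93, and LS1 replicate 3 (triangle) lay below both other LS1 libraries for Fcgr1, Mpeg1, Adgre1 and Ms4a7.

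Csf1r encodes the receptor for colony stimulating factor 1 and interleukin 34, on which macrophages and osteoclast precursors depend. Its normalized count was 11733, 13055 and 17925 in Control and 12091, 15948 and 17058 in LS1. The groups overlapped throughout, and LS1 replicate 1 was close to the lowest Control. The log2 fold change was 0.09 ± 0.18 (SE) with a 95% interval from -0.32 to 0.49 (limma adjusted p = 0.88), and its sign turned without Control replicate 1 or without LS1 replicate 3. Exons of Csf1r overlap those of Hmgxb3 on the opposite strand, and whether the reads were counted by strand is not given in the sources used here. Osteoclast genes had a summed normalized count of 357391, 334385 and 447320 in Control and 270871, 367530 and 459502 in LS1. This sum and Csf1r were both highest in replicate 3 of each group, but Control replicates 1 and 2 stood in opposite order, and the part of osteoclasts in the Csf1r level was not tested.

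Of 11 genes that encode the ligands of Csf1r or transcription factors of macrophages, 10 were higher in LS1 and 1 was lower (median log2 fold change 0.19), and limma called 0, with 2 at an unadjusted p-value under 0.05. Over all 19308 tested genes, 9783 were higher in LS1, and 7.08% were higher at that p-value. At the ends of this list stood Cebpb, a factor of the myeloid acute response, at 0.55 ± 0.23 (limma adjusted p = 0.35), and Il34, the tissue ligand of Csf1r, at -0.48 ± 0.26 (adjusted p = 0.47). Il34 read 156, 125 and 121 in Control and 90.5, 104 and 91.4 in LS1, so every LS1 library lay below every Control. Irf8, which directs the monocyte lineage, had a log2 fold change of 0.50 ± 0.24, and its value of 6826 in LS1 replicate 2 stood above the other 5 libraries (2881 to 3543). Nr1h3, the liver X receptor alpha, was higher in each LS1 library (1077 to 1632) than in any Control (896 to 1064). Csf1 and Spi1, named for their roles and outside the rule for named genes, had log2 fold changes of 0.19 ± 0.15 and 0.09 ± 0.25.

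Mpeg1 encodes perforin-2, a pore-forming protein that macrophages use against engulfed bacteria, and lies at chr19:12460779-12465283 on GRCm38. It was read at 6583, 7422 and 11299.5 in Control and at 19116, 25989.9 and 10908 in LS1. LS1 replicates 1 and 2 were above all Controls, whereas LS1 replicate 3 lay just under Control replicate 3. On the log2 scale the difference was 1.10 ± 0.34, a 2.14-fold higher level, with a 95% interval from 0.30 to 1.90 (limma adjusted p = 0.28). With DESeq2 the log2 fold change was 1.14 ± 0.28 (adjusted p = 0.0057), and with limma without LS1 replicate 3 it was 1.44 ± 0.23 (adjusted p = 0.011). The study picked Mpeg1 on these same samples, so its direction here is not independent evidence. Its quantitative PCR in other mice, on the growth plate alone, found no significant difference in Mpeg1 between LS1 and Control. The estimate lay above Control in LS1, with a wide interval, and below Control in LS2, the other selected line, also without a mark of significance.

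Lyz2 lies at chr10:117277331-117282321. Its normalized count was 51526, 42339 and 63506 in Control and 71969, 80827 and 77487 in LS1. All 3 LS1 libraries lay above all 3 Controls, and LS1 replicate 3 was between the other two. Its log2 fold change was 0.57 ± 0.16 (95% interval 0.22 to 0.92, limma adjusted p = 0.23), and it ran from 0.42 to 0.72 as each library was left out. Neutrophils also make lysozyme. The summed normalized count of 12 neutrophil genes ranged from 269562 to 374261 in Control and from 340791 to 399755 in LS1, and its part in the Lyz2 level was not tested. Of these 12 genes, 10 were higher and 2 lower in LS1, with log2 fold changes from -0.080 to 0.44 (median 0.19). Limma called 0 of them, and 3 were higher at an unadjusted p-value under 0.05, as were 7.08% of all tested genes. S100a8 and S100a9, the abundant granulocyte calcium-binding proteins, had log2 fold changes of 0.31 ± 0.18 and 0.04 ± 0.16.

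Lyz1, the neighbouring lysozyme gene of intestinal Paneth cells, is close enough to share reads with Lyz2. The reference transcripts were 95.8% identical over 1264 aligned bases, and 28.4% of all 35-base windows of Lyz2, the shortest read length, also occurred in Lyz1. Lyz1 was read at 208, 155 and 284 in Control and at 392, 374 and 257 in LS1. This was 0.365% to 0.446% of the Lyz1 and Lyz2 sum in Control and 0.331% to 0.542% in LS1. These shares cover only reads already assigned to 1 of the genes. How reads that match both were counted is not given in the sources used here, so the split between the copies is uncertain.

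Fcgr1 encodes the high-affinity receptor for immunoglobulin G and lies at chr3:96282909-96293969. The normalized count was 298, 389 and 299 in Control and 1096, 2489 and 484 in LS1. Every LS1 library was above every Control library, but the LS1 values spread widely, with LS1 replicate 3 near the Controls. The log2 fold change of 1.75 ± 0.55 (95% interval 0.45 to 3.05) was the highest of the 9 tested members, with 0.699% of tested genes higher still, and the limma adjusted p-value was 0.29. Without LS1 replicate 3 it was 2.34 ± 0.31 (adjusted p = 0.0039), and without LS1 replicate 2 it was 1.16 (limma adjusted p = 0.34).

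The other Fc receptors did not all follow Fcgr1. Of 5 genes, 4 were higher and 1 lower, the median log2 fold change was 0.15, and limma called 0, with 1 at an unadjusted p-value under 0.05. At that p-value 7.08% of all tested genes were higher. Fcgr4, an activating receptor of intermediate affinity, was read at 202, 208 and 244 in Control and at 496, 1241 and 327 in LS1, with the same order of LS1 libraries as Fcgr1. Its log2 fold change was 1.43 ± 0.41 (limma adjusted p = 0.25), with an adjusted p-value of 0.0020 in DESeq2 and 0.019 in limma without LS1 replicate 3. Of these 5 receptor genes DESeq2 called 1, and of all its genes 2.51%. Fcgr2b, the inhibitory receptor, had a log2 fold change of -0.29 ± 0.18, Fcgr3, a low-affinity activating receptor, of 0.15 ± 0.18 and Fcer1g, the signalling chain that the activating receptors share, of 0.26 ± 0.17. The log2 ratio of Fcgr1 to Fcgr2b, a comparison chosen after the values were seen, was -1.38 ± 0.42 (SD, n = 3) in Control and 0.65 ± 1.17 in LS1. Neither this ratio nor that of Fcgr4 to Fcgr2b (-1.96 ± 0.22 against -0.25 ± 1.00) overlapped between groups (exact two-sided permutation test, p = 0.1 for each and after adjustment over both, the smallest p that 3 against 3 allow). Fcgr1 and Fcgr4 alone already did not overlap, and Fcgr2b had a lower mean in LS1, so these tests add no separate support.

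**Figure D3:**
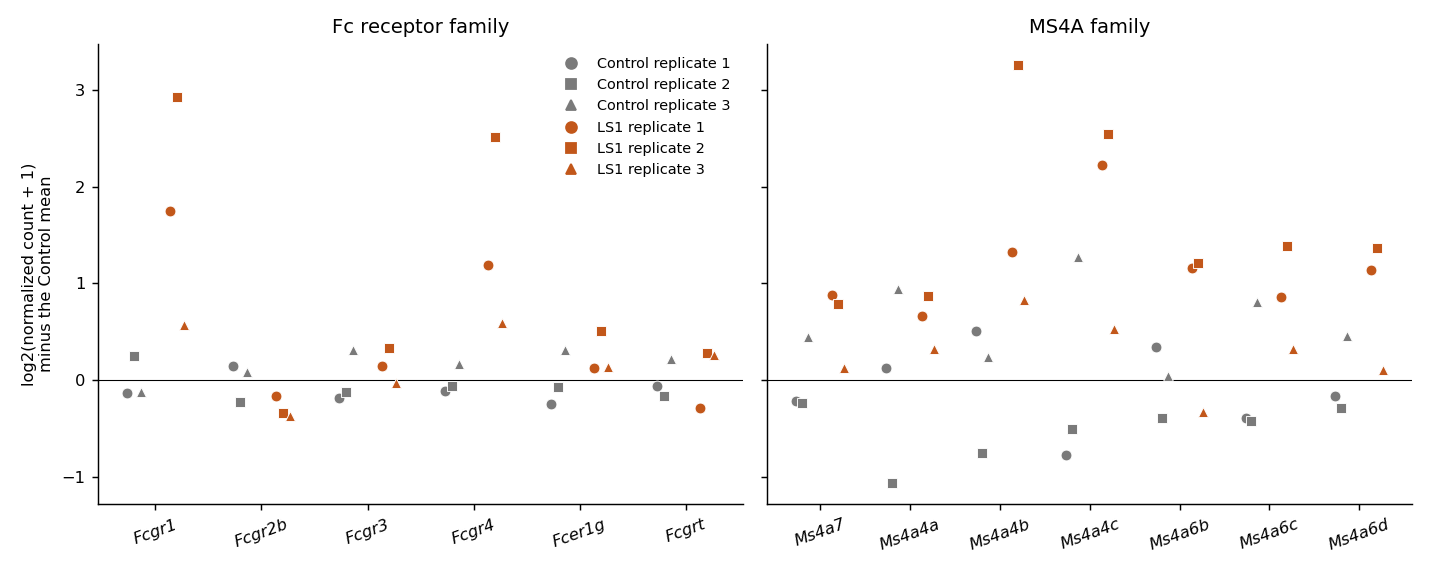
Genes of the Fc receptor family (left) and the MS4A family (right) in each library, as log2(normalized count + 1) minus the Control mean. Fcgr1 and Fcgr4 had the same order of LS1 libraries, while Fcgr2b and Fcgr3 lay between -0.37 and 0.34.

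Ms4a7 belongs to a family of membrane-spanning proteins and lies at chr19:11321039-11336146. It was read at 747, 738 and 1185 in Control and at 1596, 1495 and 949.5 in LS1. LS1 replicates 1 and 2 exceeded all Controls and LS1 replicate 3 lay within their range. The log2 fold change was 0.60 ± 0.25 (95% interval 0.053 to 1.14, limma adjusted p = 0.34). The other MS4A genes were higher in 6 of 6 cases (median 0.87), with 0 called by limma and 3 at an unadjusted p-value under 0.05 (7.08% of all tested genes higher). Without LS1 replicate 3, Ms4a6b and Ms4a6d were called, while 1.17% of all genes were called higher. Ms4a4b, known from T cells, read 295, 122 and 244 in Control and 517, 1981 and 367.5 in LS1 (log2 fold change 1.80 ± 0.69). The other named genes were Ms4a4c at 1.77 ± 0.74, Ms4a6d at 0.87 ± 0.32 and Ms4a6c at 0.86 ± 0.37, and in each of them LS1 replicate 3 lay under Control replicate 3.

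Adgre1 encodes F4/80, the surface protein most used to identify mouse macrophages, and lies at chr17:57358691-57483527. Its normalized count hardly varied in Control, with 1629, 1623 and 1565, and was 4876, 3316 and 1431 in LS1. LS1 replicates 1 and 2 were above all Controls, and LS1 replicate 3 was below all of them. The log2 fold change was 0.83 ± 0.41 (95% interval -0.15 to 1.80, limma adjusted p = 0.45), and without LS1 replicate 3 it was 1.32 ± 0.19 (adjusted p = 0.0038). Without LS1 replicate 1 it was 0.44 (limma adjusted p = 0.64). Cd68, at chr11:69664213-69666153, read 7973, 7858 and 11663 in Control and 9630, 10505 and 9911 in LS1. The LS1 values of Cd68 lay inside the Control range, with a log2 fold change of 0.15 ± 0.16 (95% interval -0.20 to 0.51, limma adjusted p = 0.72). Cd68 is also made by osteoclasts.

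Mrc1 and Cd163, the mannose receptor and the haemoglobin scavenger receptor, mark tissue-resident macrophages, and their differences had opposite signs. Mrc1, at chr2:14229392-14332057, read 3547, 3242 and 3163 in Control and 4686, 3262 and 4285 in LS1. Its log2 fold change was 0.28 ± 0.16 (95% interval -0.061 to 0.63, limma adjusted p = 0.47), and LS1 replicate 2 lay within the Controls. Mir511 lies in an intron of Mrc1. Cd163, at chr6:124304656-124330527, read 804, 603 and 554 in Control and 571, 379 and 501 in LS1, the only member with a lower mean in LS1. Its log2 fold change was -0.44 ± 0.23 (95% interval -0.93 to 0.062, limma adjusted p = 0.45), and LS1 replicate 1 exceeded Control replicate 3. Vsig4, at chrX:96247203-96293438, had 3, 1 and 0 reads in Control and 5, 10 and 2 in LS1, too few to be tested or given a fold change.

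Among 12 further scavenger and phagocytic receptors, 11 were higher and 1 lower in LS1 (median log2 fold change 0.30), and limma called 0, with 3 at an unadjusted p-value under 0.05. The share of all tested genes higher at that p-value was 7.08%. Tlr4, the endotoxin receptor, read 947, 957 and 1018 in Control and 1707, 1601 and 1395 in LS1. Its groups did not overlap, and LS1 replicate 3 was well above the Controls (log2 fold change 0.68 ± 0.16, limma adjusted p = 0.18, DESeq2 adjusted p = 0.0062). Clec7a, the receptor dectin-1 for fungal glucans, was 0.97 ± 0.29 higher on the log2 scale (limma adjusted p = 0.26, DESeq2 adjusted p = 0.016). DESeq2 called 2 of these 12 receptors and 2.51% of all its genes. Marco, a scavenger receptor of bacteria, varied most, with 268, 177 and 64.2 in Control and 2304, 585 and 60.6 in LS1 (log2 fold change 1.58 ± 1.57). Msr1, scavenger receptor A, had a log2 fold change of 0.98 ± 0.42 and overlapped between groups.

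Genes of resident and erythroblastic island macrophages were higher in 11 of 12 cases and lower in 1 (median 0.28), and limma called 0, with 2 at an unadjusted p-value under 0.05 (7.08% of all tested genes higher). Siglec1, the sialoadhesin of island macrophages, read 273, 328 and 236 in Control and 767, 628 and 312 in LS1 (0.94 ± 0.31, limma adjusted p = 0.28, DESeq2 adjusted p = 0.041). DESeq2 called 1 of these 12 genes, against 2.51% of all its genes. The complement genes C1qb and C1qc had log2 fold changes of 0.59 ± 0.22 and 0.48 ± 0.25, and Lyve1, a hyaluronan receptor, of 0.52 ± 0.30. Erythroid genes were lower in 10 of 10 cases (median -0.54), with 0 called by limma. Of these, 5 were lower at an unadjusted p-value under 0.05, as were 5.86% of all tested genes, and 9525 of the 19308 tested genes were lower in all. Without LS1 replicate 1 the erythroid median was -0.31. By library, the erythroid median relative to the Control mean was 0.22, 0.044 and -0.25 in Control and -0.92, -0.22 and -0.43 in LS1, so the groups overlapped. Alas2, which starts haem synthesis in red cells, read 84238, 69149 and 57258 in Control and 34130, 60293 and 61787 in LS1. Car2, a carbonic anhydrase that osteoclasts also make, had a log2 fold change of -0.74 ± 0.14 (limma adjusted p = 0.12, DESeq2 adjusted p = 0.00048). Of the erythroid list DESeq2 called 1 gene, and of all its genes 2.51%.

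Of the monocyte genes, 8 of 8 were higher in LS1 (median 0.48), with 0 called by limma and 6 at an unadjusted p-value under 0.05. Of the 19308 tested genes, 9783 were higher in all and 7.08% were higher at that p-value. Ly6c2, a surface marker of classical monocytes, read 1172, 1875 and 2484 in Control and 4207, 6378 and 3199 in LS1. The groups did not overlap (log2 fold change 1.32 ± 0.32, limma adjusted p = 0.21, DESeq2 adjusted p = 0.00078). Plac8, abundant in myeloid progenitors and monocytes, was at 10613, 10472 and 9548 in Control and 21932, 25379 and 11269.5 in LS1 (log2 fold change 0.85 ± 0.27, limma adjusted p = 0.27, DESeq2 adjusted p = 0.015). DESeq2 called 2 of the 8 monocyte genes and 2.51% of all its genes. Ccr2, the receptor that brings monocytes out of the marrow, and Cx3cr1, the fractalkine receptor, had log2 fold changes of 1.27 ± 0.49 and 0.50 ± 0.24 with overlapping groups.

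**Figure D4:**
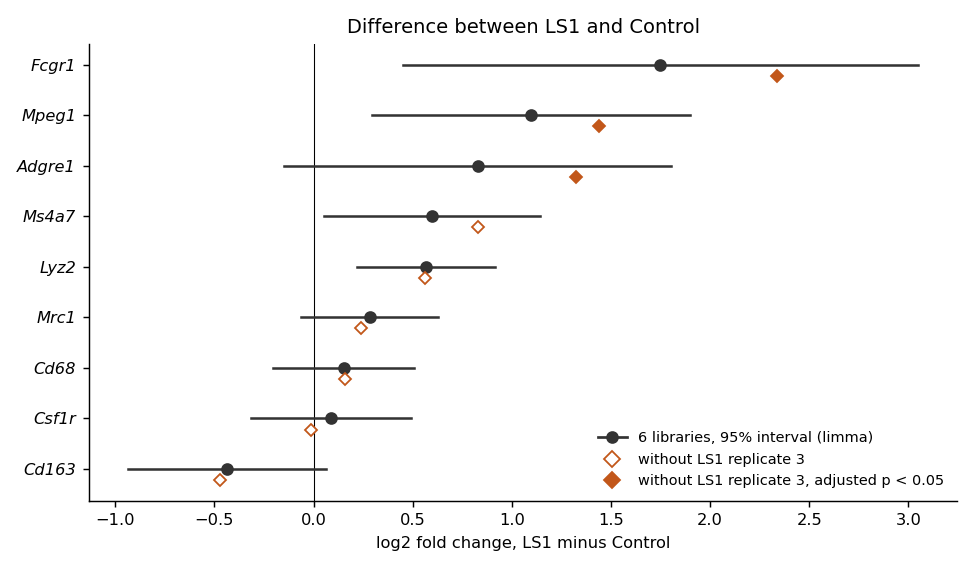
Log2 fold change of LS1 minus Control for the 9 tested genes, as circles with the 95% interval from limma over 6 libraries, and as diamonds without LS1 replicate 3, filled where the adjusted p-value was under 0.05. The intervals of Fcgr1, Mpeg1, Ms4a7 and Lyz2 lay above 0 before adjustment, and the filled diamonds are those of Fcgr1, Mpeg1 and Adgre1.

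Each member was also set against Csf1r within a library. The log2 ratio of Mpeg1 to Csf1r was -0.83, -0.81 and -0.67 in Control and 0.66, 0.70 and -0.65 in LS1. That of Lyz2 to Csf1r was 2.13, 1.70 and 1.82 in Control and 2.57, 2.34 and 2.18 in LS1. In both the groups did not overlap, by a narrow margin for LS1 replicate 3 in Mpeg1, with differences of 1.01 and 0.48 (exact two-sided permutation test, p = 0.1, the smallest possible, and 0.4 after adjustment over 8 ratios). Of the other 6 ratios, which overlapped, the differences ran from -0.52 for Cd163 to 1.66 for Fcgr1 (exact permutation p = 0.2 to 0.8).

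The genes outside the members with the most similar pattern over the 6 libraries were found by the root mean square difference of log2 values from the Control mean. For Mpeg1 these were Klra2 (0.18) and Rgs1 (0.18), and for Fcgr1 the pseudogene Serpina3e-ps (0.19) and Phf11b (0.22). Csf1r was matched most closely by Nkd1 (0.025) and Prkcsh (0.034), Adgre1 by Prg4 (0.15) and Gm43197 (0.16), and Cd68 by Faim (0.046) and Serpinb1a (0.048). Mrc1 had Sccpdh (0.034) and Ppic (0.048), Cd163 had Gm2962 (0.078) and Sgip1 (0.081), Lyz2 had Gm9266 (0.070) and Cpa6 (0.073), and Ms4a7 had Clec5a and Lonrf3 (both 0.12). Between members the closest pair was Csf1r and Cd68 (0.15) and the furthest Cd163 and Fcgr1 (1.76). These likenesses rest on 6 libraries that share their size factors and carry no test.

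Interferon-stimulated genes were higher in LS1 in 20 of 20 cases (median log2 fold change 1.57), with 0 called by limma (4 at an unadjusted p-value under 0.05, 6 called by DESeq2 and 12 by limma without LS1 replicate 3). Over all genes, 7.08% were higher at that unadjusted p-value, DESeq2 called 2.51%, and limma without LS1 replicate 3 called 1.17% higher. By library, the list's median difference from the Control mean was 1.81, 2.95 and 0.052 in LS1 replicates 1, 2 and 3 and 0.20, -0.050 and -0.20 in the Controls. Its summed normalized count ranged from 16452 to 25082 in Control and from 19770.5 to 80106 in LS1. Isg15, a ubiquitin-like protein, read 781, 702 and 575 in Control and 1346.5, 4694 and 900.1 in LS1, and Rsad2, viperin, had a log2 fold change of 0.56 ± 0.30. Among the LS1 libraries, replicate 2 was highest and replicate 3 lowest for this list, for Fcgr1 and for Mpeg1. None of the other tested members had this order. Adgre1 and Ms4a7 were highest in LS1 replicate 1 and Csf1r in LS1 replicate 3. Lyz2 and Cd68 were lowest in LS1 replicate 1, and Mrc1 and Cd163 in LS1 replicate 2. The order of the list was also found in genes outside it, such as Ly6c2, Plac8, Ccr2 and Clec7a, but not in Tlr4 or Siglec1. The share of all genes with this order was not counted, so the match with Fcgr1 and Mpeg1 is only a description. The Control libraries did not share an order, since Control replicate 3 was lowest for the list and highest for Mpeg1, and Control replicate 2 was highest for Fcgr1. The median of the list became 0.88 on leaving out LS1 replicate 2 and 2.37 on leaving out LS1 replicate 3. The part of the interferon response in the levels of the members was not tested.

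Markers of the other cell types in the tissue are given as they bear on the macrophage values. Summed over each list, chondrocyte genes were at 2356220 to 2722880 in Control and 3113460 to 3555920 in LS1 (8 of 8 higher, median 0.49), and Col10a1, the collagen of hypertrophic cartilage, had a log2 fold change of 0.61 ± 0.13 and Col2a1, the main cartilage collagen, of 0.24 ± 0.16. B cell genes were at 56494 to 59649.9 in Control and 33105 to 52371 in LS1 (1 of 9 higher, median -0.48), with Vpreb1, part of the surrogate light chain, at -0.73 ± 0.22 and Cd79a at 0.01 ± 0.16. Osteoclast genes were higher in 6 of 10 cases (median 0.015), with Ctsk, cathepsin K, at 0.03 ± 0.19 and Acp5 at -0.18 ± 0.25. Dendritic cell genes summed to 3609 to 3964 in Control and 4154 to 5681 in LS1 (6 of 7 higher, median 0.43), with Itgax at 0.60 ± 0.20 and Zbtb46 at -0.05 ± 0.19. Endothelial genes summed to 30069.7 to 32179 in Control and 29435 to 34034 in LS1 (4 of 6 higher, median 0.083), with Pecam1 at -0.11 ± 0.12 and Cdh5 at 0.09 ± 0.14. Limma called 0 genes in each of these 5 lists, and DESeq2 called 3, 1, 0, 0 and 0 in the order given (2.51% over all its genes). At an unadjusted p-value under 0.05, 5 chondrocyte, 2 dendritic cell and 1 endothelial gene were higher in LS1 (7.08% of all tested genes), 5 B cell genes were lower (5.86% of all tested genes) and 0 osteoclast genes were either. The B cell median was -0.20 without LS1 replicate 2, and the osteoclast and endothelial medians ran from -0.11 to 0.14 and from 0.023 to 0.16 as each library was left out. No gene of any list was at 0 in all libraries, and the part of these cells in the macrophage values was not tested.

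**Figure D5:**
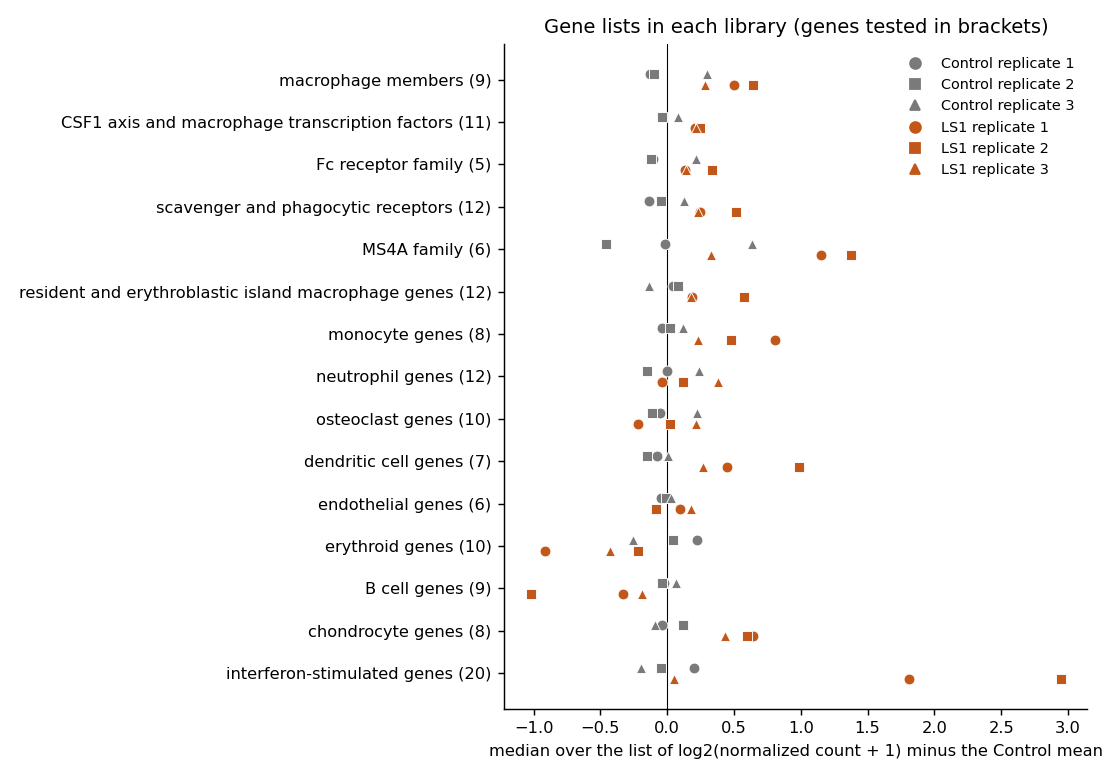
Median over each gene list of log2(normalized count + 1) minus the Control mean, in each library, with the number of tested genes in brackets, Control in grey and LS1 in orange. The interferon-stimulated list separated LS1 replicates 1 and 2 (1.81 and 2.95) from LS1 replicate 3 (0.052). The erythroid and B cell lists were below 0 in all 3 LS1 libraries, but for the erythroid list Control replicate 3 (-0.25) lay below LS1 replicate 2 (-0.22).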

How the data were processed

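Paired-end reads of 35 to 50 bases were aligned by the authors (HISAT2 2.0.2, GRCm38), assigned to Ensembl release 84 genes (featureCounts 1.4.6) and analysed with DESeq2. The deposited signal is the read count divided by 1 size factor per library. Division by the value of 1 read gave whole reads for 100% of values (tolerance 0.01), less surely in Control replicate 1, where this value is close to 1. The 6 libraries, 3 per group, were compared with limma 3.58.1 in R 4.3.3 (mean-variance trend, robust) on log2(value + 1), for genes averaging 20 or more recovered reads. P-values were adjusted by Benjamini and Hochberg over 19308 genes (threshold 0.05). A fold change on this scale understates changes of low genes. Alternatives were edgeR 4.0.16, DESeq2 1.42.0, voom, other filters, pseudocounts and normalization, a Y-linked covariate, a replicate block and each library left out. The fits were tested on simulated data. Names and coordinates came from GENCODE M21 (99.1% of identifiers). The members and lists were chosen with earlier results of these data known. Named genes were all members, in each macrophage, monocyte and receptor list the 4 genes of largest absolute log2 fold change, in each other list the 2 of highest level per length, and for each member the 2 most similar genes. Lyz1 and Lyz2 were compared as transcripts and not, as planned, as proteins. Precision is limited by 3 mice per group.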

Additional observations from a re-analysis of the deposited data

How the results depend on the processing

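Each of the 9 tested members was refitted under 18 settings. Of these 162 values, 155 kept their direction and their side of the threshold, 4 came to pass it (Mpeg1 with DESeq2, and Mpeg1, Adgre1 and Fcgr1 without LS1 replicate 3) and 3, all of Csf1r, changed sign. The log2 fold change of Csf1r ran from -0.041 to 0.26 as each library was left out and was -0.063 with edgeR without Control replicate 1, a setting chosen after seeing the data. The number of members called was 1 with DESeq2 and ran from 0 to 3 as each library was left out, and their median log2 fold change from 0.42 to 0.72. The number of genes called, 14 with limma, was 7 with edgeR, 5 with edgeR without Control replicate 1, 456 with DESeq2, 45 without a filter, 9 with a mean of at least 100 reads and 3 without trend and robust moderation. It ran from 5 (without Control replicate 2) to 324 (without LS1 replicate 3) as each library was left out, with 9 without Control replicate 1 and 46 without LS1 replicate 1. The cause was not tested. The letters in the sample titles were tried as a replicate block, which called 12 genes and 0 members, but deviations of same-letter samples correlated at 0.054, 0.021 and 0.22, so the letters were not taken as pairs, and LS1 of letter A correlated best with Control of letter B (0.12). Of 105 list medians under these settings, 97 moved by less than the spread between replicates, and the other 8 were of the ligand and transcription factor list and the Fc receptor list, when 1 library was left out. Leaving out 1 library still moved several medians by over 1.5 times. The scavenger median was 0.19 and the resident macrophage median 0.16 without LS1 replicate 2, and the latter was 0.46 without LS1 replicate 3. The neutrophil median was 0.10 without Control replicate 2, 0.35 without Control replicate 3 and 0.088 without LS1 replicate 3. The ligand and transcription factor median was 0.30 without LS1 replicate 1, and the Fc receptor median ran from 0.059 to 0.31, moving by over 1.5 times with each library. Among members with no call, Cd163 was at -0.28 without Control replicate 1 and -0.27 without LS1 replicate 2, Mrc1 at 0.17 without LS1 replicate 1 and 0.44 without LS1 replicate 2, and Cd68 ran from 0.054 to 0.34. TMM moved the median of all genes by 0.011. Vsig4, with at most 10 reads in a library, was not tested.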
